A study of Drosophila melanogaster with 26 samples.

Results

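The transcriptome of male S2 cells was compared after RNAi against *jasper* and after control RNAi, which addresses which genes and functions change upon its knockdown in these cells. The comparison held 8 of the 26 RNA-seq samples of the study: 4 samples labelled *jasper* RNAi (replicates 4, 5, 8 and 9) and the 4 control RNAi samples of the same batches with the same numbers. Replicates 4 and 5 belonged to batch 1 and replicates 8 and 9 to batch 2. All 8 samples came from the S2-DRSC line, an embryonic line with hemocyte features, and carried no transgene or mutation named in the labels. Cells of both groups were incubated with double-stranded RNA at 10 µg per mL, treated again after 3 days and collected after 4 more days, with RNA against *gst* or *gfp* as control. The labels do not state which double-stranded RNA a sample received or by which kit ribosomal RNA was depleted, nor whether replicates were separate cultures, so p-values measure the spread between these samples. The remaining samples of the study were *jil-1* RNAi and batch 3 controls in S2 cells and control, *jasper* and *jil-1* RNAi in female Kc cells, of which the Kc control and *jasper* RNAi samples served for comparison.

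JIL-1 is the kinase that phosphorylates histone H3 at serine 10 in interphase chromatin of *Drosophila*, and it is enriched on the male X chromosome, where dosage compensation raises transcription of X-linked genes. JASPer is the PWWP-domain partner of JIL-1, a reader of histone H3 methylated at lysine 36, a mark placed along transcribed genes. Loss of JIL-1 is known in flies for distorted polytene chromosomes and the spread of heterochromatic marks.

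Reads on the strand of the gene amounted to 4313711 to 16383451 per control sample and 8163522 to 15920989 per *jasper* RNAi sample. Levels are given in CPM, read counts scaled by library size with the TMM method, in the order of replicates 4, 5, 8 and 9, and changes as log2 fold-changes of *jasper* RNAi against control with their standard errors. The label of the cells was checked with 11 markers of hemocytes, the blood cells of the fly, and all 11 were at 5 CPM or more in every control sample. The GATA factor *srp* lay between 154 and 179 CPM in control cells and between 169 and 184 CPM upon *jasper* RNAi, and the summed level of a list of 19 hemocyte factors and scavenger receptors lay between 3309 and 3609 CPM and between 3379 and 3537 CPM. Summed levels of neuron markers were 88.3 to 94.2 CPM in control cells and 83.7 to 93.7 CPM upon *jasper* RNAi, most of them from *Syx1A* and *elav*. Of 6 muscle markers, *Tm2* was at most 0.0969 CPM in any sample, and *up*, troponin T, rose from 2.34, 2.22, 2.32 and 2.95 to 4.85, 4.21, 4.97 and 6.68 CPM (log2 fold-change 1.09, standard error 0.19, adjusted p = 0.0019). The other 4 muscle markers had negative values that did not pass the threshold, *Mhc* (-0.39), *Mlp84B* (-0.27), *Mlc2* (-0.18) and *bt* (-0.15), and the summed level of the list was 34.4 to 39.3 CPM against 30.2 to 40.3 CPM. Of 7 fat body markers, 6 were below 1 CPM in all samples, and their summed level was 36.4 to 43.3 CPM against 21.5 to 32.9 CPM, nearly all of it from *apolpp*. The germline markers *bam*, *osk*, *otu*, *tej* and *yl* summed to 1.53 to 2.27 CPM and 1.52 to 2.11 CPM. *aub*, a further germline marker outside this sum, was at 17.3 to 22.2 CPM in control cells. Upon *jasper* RNAi it was at 12.1 to 18.1 CPM, and its fall is described with small RNA silencing. Midgut markers summed to at most 0.222 and 0.291 CPM. The part of other cells in the results below was not tested. In bulk RNA, fewer cells of a type and less RNA per cell cannot be told apart.

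Upon *jasper* RNAi, 1000 of 8741 tested genes were lower and 705 were higher at an adjusted p below 0.05, that is 11.4% and 8.07% of the genes tested. The changes were mostly small. The median log2 fold-change was -0.33 among genes that fell and 0.25 among genes that rose, and it was 0.01 over all genes tested. Falls were larger than rises at the extremes: 140 genes fell by more than 1 on the log2 scale and 49 rose by more than 1. Among genes of at least 5 mean CPM these numbers were 49 and 8. All 1000 and 705 genes moved in the same direction in both batches, and 956 and 678 of them did so in all 4 same-numbered pairs of samples. The genes were called from these same samples, so this agreement is no separate support. Of all calls, 58.7% were falls. With DESeq2 the split was 841 lower and 372 higher genes, 69.3% falls. Without control replicate 8, the deepest of the 8 samples, 670 genes were lower and 288 higher.

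The share of genes that fell was highest among the most expressed genes. When genes were divided by mean CPM into 5 classes of equal size, the lowest class held 91 genes that fell and 59 that rose among 1749, and the highest class 301 and 113 among 1748. The middle class, from 23.1 to 53.3 CPM, was the only one with more rises than falls, with 185 against 176. In the plot of change against level, the called genes formed a narrow band at high levels, where small changes passed the threshold.

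**Figure D1:**
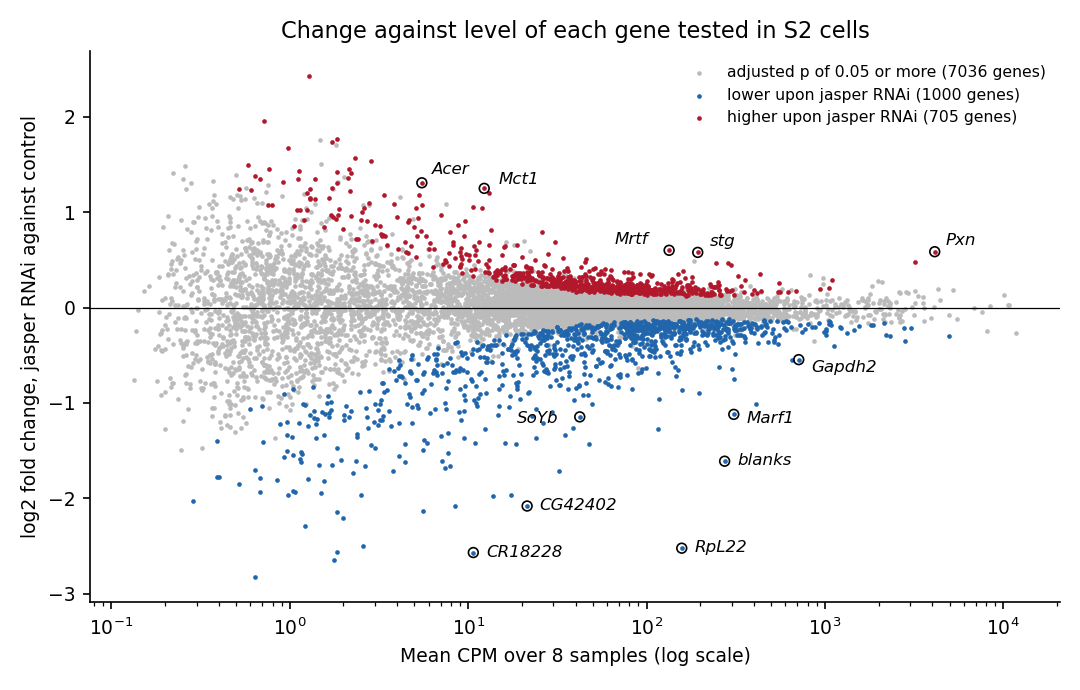
Mean CPM over the 8 samples (log scale) against the log2 fold-change upon *jasper* RNAi for the 8741 genes tested, with 1000 lower genes in blue, 705 higher genes in red and other genes in grey. The most pronounced falls among well-expressed genes, such as *RpL22* and *blanks*, lie farther from 0 than any rise at the same level.

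The gene with the smallest p among all that fell was *blanks* (FBgn0035608; 3L, 5497523 to 5498958), which encodes a double-stranded RNA-binding protein known from the male germline. It had 387, 396, 439.7 and 427 CPM in control cells and 151, 140.1, 120.3 and 132 CPM upon *jasper* RNAi (log2 fold-change -1.61, standard error 0.07, adjusted p = 1.8e-08). Every control sample was well above every *jasper* RNAi sample.

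*Marf1* (2L, 22308755 to 22368796), an RNA-binding regulator of mRNA in oocytes, had 424, 420.4, 428 and 418 CPM in control cells and 186, 201, 183 and 207 CPM upon *jasper* RNAi (log2 fold-change -1.12, standard error 0.05, adjusted p = 1.8e-08). Its levels were nearly the same in the 4 samples of a group and did not overlap between groups. *SoYb* (2L, 9996706 to 10002736), a Tudor-domain protein of the piRNA pathway, had 60.2, 63.5, 56.9 and 51.8 CPM against 27.2, 29.7, 22.9 and 25.7 CPM (log2 fold-change -1.15, standard error 0.06, adjusted p = 3.2e-07). The highest *jasper* RNAi sample was well below the lowest control sample. *CG15740* on the X fell from 101, 96.5, 117 and 109 to 56.1, 55.7, 61.2 and 62.4 CPM (log2 fold-change -0.86, standard error 0.05, adjusted p = 2.0e-07), and *CG42402* on 3R from 29.5, 29.7, 41.1 and 37.7 to 7.58, 8.50, 6.97 and 10.2 CPM (log2 fold-change -2.08, standard error 0.12, adjusted p = 3.2e-07). Both were below all control samples in all 4 *jasper* RNAi samples.

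By size, the largest falls among genes of at least 5 mean CPM were led by *CR18228* (3R, 8260706 to 8261898), a pseudogene, with 24.1, 24.2, 14.3 and 10.7 CPM in control cells and 2.61, 4.21, 1.94 and 3.49 CPM upon *jasper* RNAi (log2 fold-change -2.57, standard error 0.18, adjusted p = 1.8e-06). *RpL22* (X, 762560 to 765130), which encodes a protein of the large ribosomal subunit, had 314, 295, 112 and 354 CPM against 62.6, 42.6, 34.1 and 45.9 CPM (log2 fold-change -2.52, standard error 0.27, adjusted p = 4.7e-05). Its lowest control sample was replicate 8, which was still above all *jasper* RNAi samples. The annotation places *snoRNA:Psi18S-531*, *snoRNA:Psi28S-2179* and *lncRNA:CR42491* within *RpL22* on the same strand. Reads that were ambiguous between overlapping genes were not counted for any of them. The other falls of this set were *CG4267* (-2.13), *CR14033* (-2.08), *Srg3* (-1.97), *CG40006* (-1.96), *CG44013* (-1.71), *Cyp12a5* (-1.68), *CG10859* (-1.67) and *TBC1D16* (-1.61). *Cyp12a5*, a mitochondrial cytochrome P450, fell from 10.3, 11.8, 11.8 and 10.7 to 5.22, 3.80, 2.30 and 3.29 CPM, and *TBC1D16*, a TBC-domain protein of the family that acts on Rab GTPases, from 12.4, 10.2, 10.4 and 9.53 to 3.73, 5.20, 2.42 and 3.10 CPM. *Srg3* differed between batches in both groups, with 5.89, 5.99, 42 and 34.5 CPM in control cells and 1.86, 1.90, 8.97 and 9.78 CPM upon *jasper* RNAi, so that the groups overlapped across batches and not within them. It passed the threshold with batch in the model and not without it. All other falls named here had groups that did not overlap, and each of the calls held with any 1 sample left out.

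The largest rises were smaller than the largest falls. *Acer* (2L, 8521933 to 8525740), related to angiotensin-converting enzyme, rose from 3.05, 3.77, 2.75 and 3.63 to 6.96, 8.50, 7.88 and 7.46 CPM (log2 fold-change 1.31, standard error 0.16, adjusted p = 0.00013). *Mct1* (X, 2189188 to 2205373), a monocarboxylate transporter, rose from 8.30, 5.99, 7.39 and 6.36 to 21.4, 18.7, 16.2 and 14 CPM (log2 fold-change 1.25, standard error 0.12, adjusted p = 2.8e-05). In both genes the lowest *jasper* RNAi sample was above the highest control sample. *orb* (3R, 23260610 to 23280856), a CPEB-family RNA-binding protein known for translational control in oocytes, rose from 7.74, 6.21, 7.02 and 6.13 to 13.5, 18.3, 12.1 and 14.2 CPM (log2 fold-change 1.05, standard error 0.14, adjusted p = 0.00020) without overlap. *Mrtf*, a coactivator of serum response factor, had the smallest p of all rises, with 117, 106, 106 and 92.6 CPM in control cells and 170.1, 181, 140.0 and 157 CPM upon *jasper* RNAi (log2 fold-change 0.60, standard error 0.06, adjusted p = 2.1e-05). The phosphodiesterase gene *Pde9* (0.50, adjusted p = 0.00011) and *He* (0.47, adjusted p = 8.4e-05), which encodes the hemocyte surface protein Hemese, were also among the 5 rises with the smallest p.

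*Nos*, nitric oxide synthase, rose by 1.2 (standard error 0.33, adjusted p = 0.024), but its replicates did not move alike. It had 9.79, 9.32, 6.96 and 5.45 CPM in control cells and 11.6, 26.9, 8.79 and 26.5 CPM upon *jasper* RNAi, so that replicates 5 and 9 accounted for most of the rise and the groups overlapped. The call was lost in 5 of the 8 fits with 1 sample left out, with an adjusted p of up to 0.0992. *Sema1a*, a transmembrane semaphorin, showed a like pattern with 4.68, 10.2, 5.62 and 5.67 against 8.70, 13.4, 7.64 and 14.4 CPM (log2 fold-change 0.86, standard error 0.25, adjusted p = 0.030), and its call was lost in 5 of these fits as well. For both, these were the fits without control replicates 4, 8 or 9 and without *jasper* RNAi replicate 5, and in addition without control replicate 5 for *Nos* and *jasper* RNAi replicate 9 for *Sema1a*. Other large rises were *CG3328* (1.18), the ubiquitin ligase *Rchy1* (1.08), *CG4872* (1.05), the aspartyl hydroxylase *Asph* (1.04), the sorbitol dehydrogenase *Sodh2* (0.97) and the salt-inducible kinase *Sik2* (0.81). Of these, *Sik2* had overlapping groups. *Sodh2* lies opposite to *asRNA:CR45195* and *CG14695*, and 82.5% of its reads in control cells and 60.3% upon *jasper* RNAi were on the opposite strand. When both strands were counted, its log2 fold-change was -0.23, so the rise holds only for reads on its own strand.

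**Figure D2:**
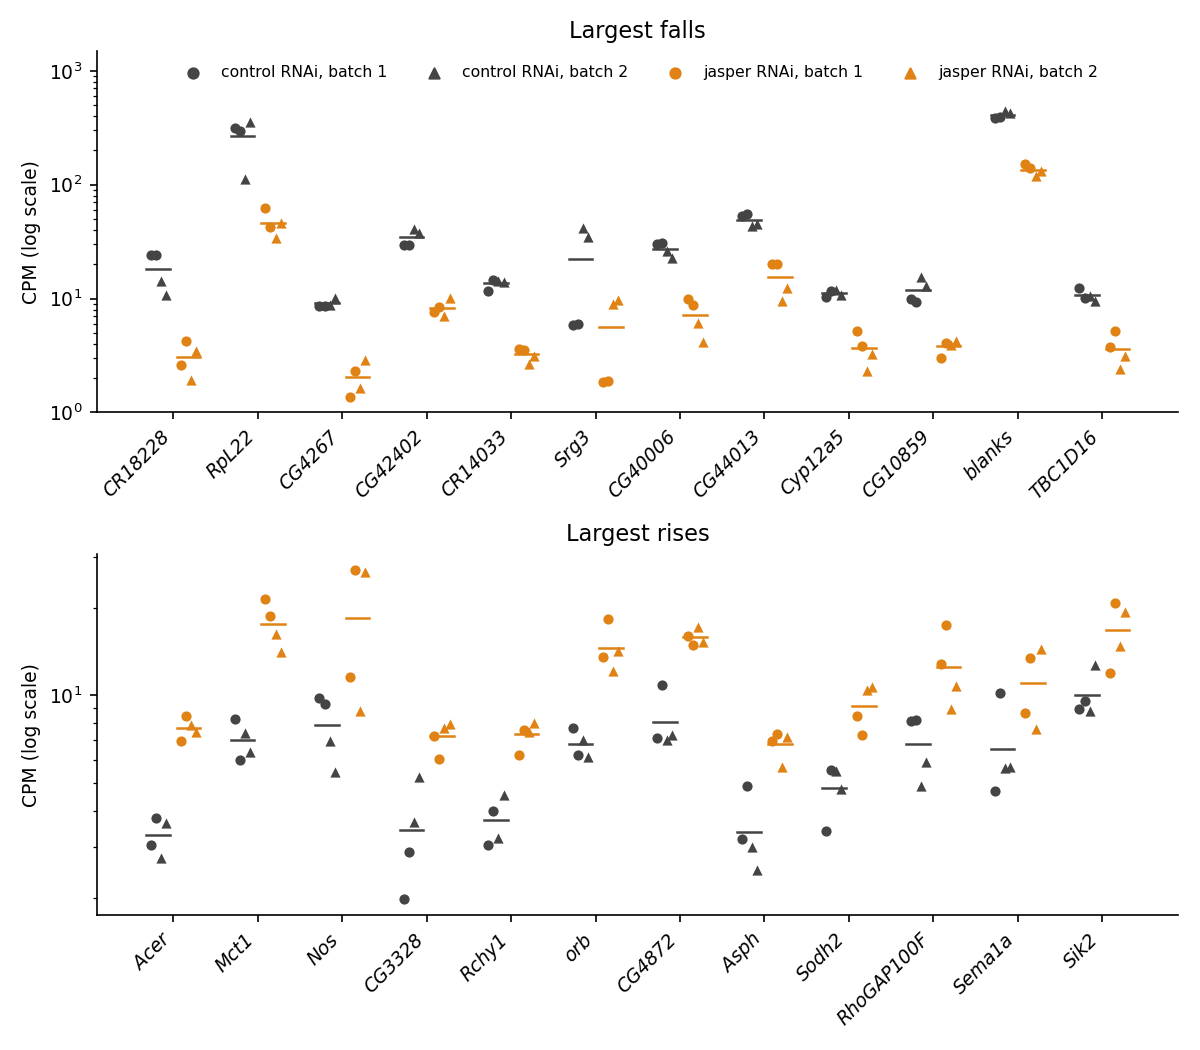
CPM (log scale) of the 12 largest falls (top) and the 12 largest rises (bottom) among genes of at least 5 mean CPM, with 1 point per sample, control RNAi in grey, *jasper* RNAi in orange, batch 1 as circles and batch 2 as triangles, and lines at the group means. *Srg3* differs between batches in both groups, and *Nos* is split among the *jasper* RNAi samples with 26.9 and 26.5 CPM in replicates 5 and 9.

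Genes were then grouped by function. In the plot of gene lists, glycolysis, JNK signalling and the unfolded protein response had the highest shares of members that fell.

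**Figure D3:**
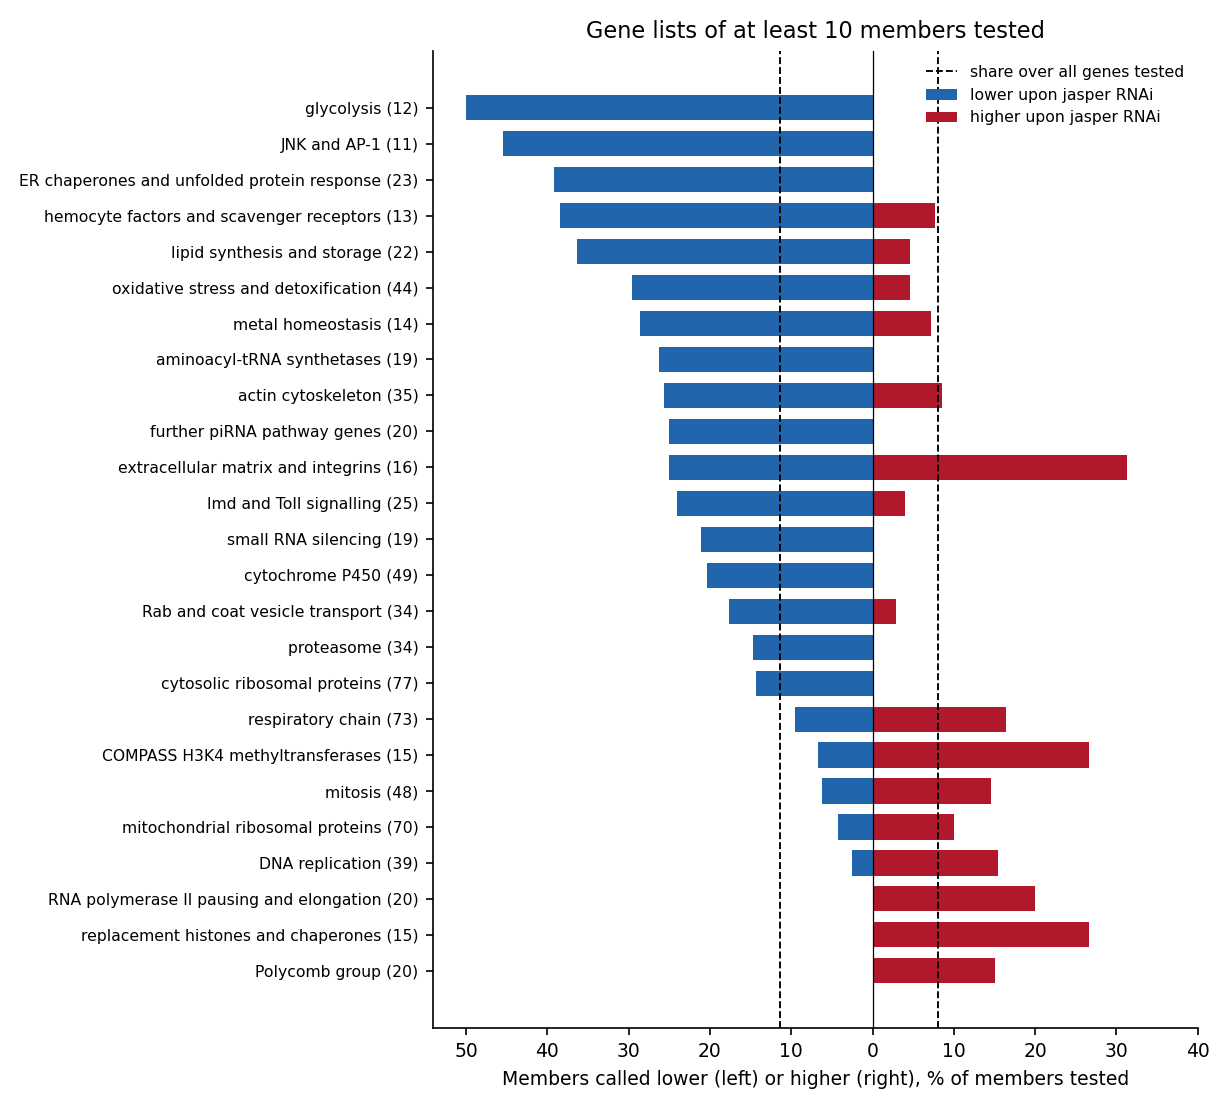
Share of tested members called lower (blue, to the left) and higher (red, to the right) upon *jasper* RNAi in the 25 described gene lists with at least 10 members tested, given in brackets, with dashed lines at the shares over all genes tested, 11.4% and 8.07%. Glycolysis, with 50.0% of members lower, reaches farthest to the left, while the respiratory chain has 9.59% of members lower and 16.4% higher.

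The mRNA of the kinase partner did not pass the threshold. *JIL-1* had 61.4, 74.3, 75.8 and 87.8 CPM in control cells and 80.3, 63.7, 90.2 and 76.2 CPM upon *jasper* RNAi, with overlapping groups (log2 fold-change 0.08, standard error 0.09, adjusted p = 0.56). In the dosage compensation complex, which binds the male X and acetylates histone H4 there, 1 of 8 tested members fell and 1 rose. These are 12.5% each, beside 11.4% and 8.07% of all genes. The acetyltransferase gene *mof* went from 96.2, 93.4, 76.1 and 72.4 to 84.1, 83.6, 64.3 and 68.6 CPM (log2 fold-change -0.18, standard error 0.04, adjusted p = 0.015) and the scaffold gene *msl-1* from 149, 145, 152 and 162 to 163, 167, 178 and 166 CPM (log2 fold-change 0.15, standard error 0.04, adjusted p = 0.029). Neither call was stable: *mof* was lost without control replicate 4 or 8, and *msl-1* in 6 of the 8 fits with 1 sample left out. *msl-2*, the male-specific subunit, had 49.5, 47, 47.7 and 49.9 against 53.2, 59.2, 53.4 and 51.1 CPM (log2 fold-change 0.16, standard error 0.06, adjusted p = 0.062), without overlap of the groups. *msl-3* (0.16), *mle* (0.12), *Clamp* (-0.01) and the noncoding RNAs *roX1* (0.35) and *roX2* (0.10) did not pass the threshold either. *roX2* was at 689.8 to 746 CPM in control cells and 695 to 868 CPM upon *jasper* RNAi.

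Among genes for other chromatin complexes, most calls were small rises. Of 15 tested members of the COMPASS group, which methylates histone H3 at lysine 4, 4 rose (26.7% against 8.07% of all genes) and 1 fell, with a median log2 fold-change of 0.13 beside 0.01 for all genes. The rises were *Rbbp5* (0.37, adjusted p = 0.019), *BOD1* (0.32, adjusted p = 0.010), *trx* (0.24, adjusted p = 0.0023) and *Mnn1* (0.16, adjusted p = 0.049), and the fall was *wds* (-0.30, adjusted p = 0.030), which lies on the X. The number of rises was 2 without control replicate 4 or *jasper* RNAi replicate 5. With 1 sample left out, *wds* was lost in 6 and *Mnn1* in 7 of the 8 fits, and *Mnn1* also with DESeq2. Of 20 tested Polycomb group genes, which maintain repression by way of histone H3 lysine 27 methylation, 3 rose (15% beside 8.07%) and none fell (median 0.09). These were *escl* (0.38, adjusted p = 0.024), *E(z)* (0.18, adjusted p = 0.035), the methyltransferase itself, and *Su(z)2* (0.17, adjusted p = 0.049). All 3 calls were lost without control replicate 8 or *jasper* RNAi replicate 5 and with DESeq2.

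Of 15 tested genes for replacement histones and histone chaperones, 4 rose (26.7% beside 8.07%) and none fell (median 0.04): *cal1* (0.20, adjusted p = 0.022), the chaperone of the centromeric histone, *His4r* (0.17, adjusted p = 0.010), *Ssrp* (0.13, adjusted p = 0.047) of the FACT complex and *His3.3A* (0.12, adjusted p = 0.046). Only 1 call was left without control replicate 8, control replicate 9 or *jasper* RNAi replicate 4. *Ssrp* and *His3.3A* were each lost in 7 of the 8 fits with 1 sample left out and with DESeq2. *cal1* lies opposite to *cher*, and 60.3% of its reads in control cells were on the opposite strand. Of 20 tested factors of RNA polymerase II pausing and elongation, 4 rose (20% beside 8.07%) and none fell, and 17 of 20 log2 fold-changes were positive (median 0.09). The rises were *Nelf-A* (0.22, adjusted p = 0.021) of the pausing factor NELF, *ear* (0.18, adjusted p = 0.0086) of the super elongation complex and *Ctr9* (0.17, adjusted p = 0.016) of the Paf1 complex, together with *Ssrp*. Without control replicate 8 or 9 or *jasper* RNAi replicate 4, 5 or 8 the number was 2. The Brahma remodelling complex (1 of 10 members lower, 2 higher), heterochromatin proteins (1 of 18 lower) and proteins of histone H3 lysine 36 methylation (1 of 9 lower) showed few changes. The Brahma rises numbered 0 or 1 in every fit with 1 sample left out and 0 with DESeq2, and the falls of heterochromatin and lysine 36 methylation proteins were lost with DESeq2 and in 7 and 6 of the 8 fits.

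Among genes of small RNA silencing, all calls were falls. The piRNA pathway silences transposons with short RNAs bound to PIWI-clade proteins, and it is best known from the germline and its support cells. Of 19 tested genes of small RNA silencing, 4 fell (21.1% against 11.4%) and none rose, and among them were the genes of all 3 PIWI-clade proteins of the fly. *piwi* fell from 179, 165, 163 and 154 to 132, 153, 105 and 118 CPM (log2 fold-change -0.39, standard error 0.07, adjusted p = 0.0015), without overlap of the groups. *AGO3* fell from 12.1, 16.9, 15.4 and 12 to 6.59, 8.75, 7.46 and 8.82 CPM (log2 fold-change -0.82, standard error 0.14, adjusted p = 0.0016), also without overlap. *aub* fell from 22.2, 22, 17.8 and 17.3 to 18.1, 16.2, 12.1 and 14.3 CPM (log2 fold-change -0.40, standard error 0.09, adjusted p = 0.0079), where the ranges overlapped across batches. *Dcr-2*, the Dicer of the siRNA pathway, fell by a small amount (-0.16, adjusted p = 0.021), and its call was lost without control replicate 8 or *jasper* RNAi replicate 5.

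A second list of 21 piRNA pathway genes was drawn up after these values were seen, so its counts are a description. Of 20 tested members, 5 fell (25.0% beside 11.4% of all genes) and none rose (beside 8.07%), with a median of -0.05. Besides *SoYb*, these were *nxf2*, which acts with Panoramix in transcriptional silencing, *squ*, *mael* and *moon*. *nxf2* fell from 49.8, 47.3, 39.7 and 42.7 to 34.4, 32.5, 23.7 and 23 CPM (log2 fold-change -0.67, standard error 0.07, adjusted p = 3.5e-05), *squ* from 60.8, 65.2, 65.3 and 61.7 to 47.2, 48.1, 42.9 and 36.2 CPM (log2 fold-change -0.54, standard error 0.07, adjusted p = 0.00027) and *mael* from 35.2, 31.7, 28.4 and 29.5 to 24.5, 28.2, 21.5 and 21.1 CPM (log2 fold-change -0.39, standard error 0.07, adjusted p = 0.0024). The groups of these 3 genes did not overlap. *moon* (-0.25, adjusted p = 0.025) had overlapping groups, and its call was lost with DESeq2 and in 5 of the 8 fits with 1 sample left out. *squ* overlaps *grp* on the same strand.

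Of 77 tested genes for cytosolic ribosomal proteins, 11 fell (14.3% beside 11.4% of all genes) and none rose, with a median of -0.04. Of the 11, 8 were among the 12 tested members on the X. Apart from *RpL22* these were moderate falls of very abundant mRNAs. *RpS19a* had 3169, 3234, 3117 and 3084 CPM in control cells and 2684, 2596, 2112 and 2533 CPM upon *jasper* RNAi (log2 fold-change -0.35, standard error 0.06, adjusted p = 0.0027), and *sta*, which encodes the ribosomal protein RpSA, 5529.8, 5482, 5488 and 5350.4 against 4438, 4488, 3943 and 4886 CPM (log2 fold-change -0.30, standard error 0.07, adjusted p = 0.0094). In neither gene did the groups overlap. *RpLP2* (-0.30), *RpL13* (-0.28) and *RpS14a* (-0.26) also fell, of which *RpL13* was lost in 4 of the 8 fits with 1 sample left out. Without control replicate 8 the number of falls was 5, and DESeq2 called 4 members higher.

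Mitochondrial ribosomal proteins rose at a share near that of all genes. Of 70 tested members, 7 rose (10.0% beside 8.07%) and 3 fell (4.29% beside 11.4%, median 0.09), and the 3 that fell were all on the X. *mRpL54* (0.43, adjusted p = 0.0033) and *mRpL46* (0.31, adjusted p = 0.0082) rose without overlap, and *mRpS30* (-0.39, adjusted p = 0.00082) fell without overlap. *mRpL34* (0.35), *mRpS24* (0.34) and *mRpL3* (-0.27) completed the members named, of which *mRpS24* was lost in 3 of the 8 fits with 1 sample left out. The number of rises was 3 without *jasper* RNAi replicate 4 and 3 with DESeq2. In the nuclear-encoded respiratory chain, 12 of 73 members rose (16.4% beside 8.07%) and 7 fell (9.59% beside 11.4%), 5 of the 7 on the X. *ND-AGGG* of complex I rose from 14, 19.3, 18.5 and 14.1 to 23.2, 22, 25 and 25 CPM (log2 fold-change 0.53, standard error 0.10, adjusted p = 0.0036), as did *ND-B12* (0.30, adjusted p = 0.0069), while *COX6B* (-0.30, adjusted p = 0.0019) of complex IV, *UQCR-14* (-0.27, adjusted p = 0.0020) of complex III, *ND-18* (-0.28, adjusted p = 0.017) and *ND-B14.5A* (-0.26, adjusted p = 0.023) fell, and *ND-B14.5A* was lost in 4 of the 8 fits. The rises numbered 4 without control replicate 8 or *jasper* RNAi replicate 4 and 3 with DESeq2, and the falls 4 without control replicate 9.

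Aminoacyl-tRNA synthetases, which charge tRNAs, were lower as far as they changed: 5 of 19 fell (26.3%) and none rose. These were *LysRS* (-0.22, adjusted p = 0.0026), *alpha-PheRS* (-0.22, adjusted p = 0.0079), *GlnRS* (-0.22, adjusted p = 0.040), *IleRS* (-0.18, adjusted p = 0.047) and *ArgRS* (-0.17, adjusted p = 0.011). *GlnRS* and *IleRS* were each lost in 6 of the 8 fits with 1 sample left out, and the count was 3 without control replicate 4, 8 or 9 or *jasper* RNAi replicate 4. *LysRS*, *alpha-PheRS* and *ArgRS* lie on the X.

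Among metabolic lists, glycolysis and lipid genes held falls at shares above that of all genes, while the tricarboxylic acid cycle did not. In this cycle 1 of 13 tested genes fell (7.69%) and 2 rose, and the rises numbered 0 or 1 with any 1 sample left out and 0 with DESeq2. Of 12 tested glycolytic genes, 6 fell (50.0% against 11.4%), none rose and 11 had a negative log2 fold-change (median -0.16). *Gapdh2*, one of the genes for glyceraldehyde-3-phosphate dehydrogenase, had 879.6, 863, 832 and 813 CPM in control cells and 599, 600.3, 574 and 548 CPM upon *jasper* RNAi (log2 fold-change -0.55, standard error 0.04, adjusted p = 3.2e-06). The samples of each group lay close together and the groups did not overlap. *Gapdh1* fell from 294, 303, 275 and 274 to 231, 233, 226 and 233 CPM (log2 fold-change -0.31, standard error 0.04, adjusted p = 0.00020) and *Tpi*, triosephosphate isomerase, from 377, 379, 315 and 312 to 286, 281, 224 and 275 CPM (log2 fold-change -0.37, standard error 0.06, adjusted p = 0.00062), also without overlap. *Pgk* (-0.28, adjusted p = 0.0028), *Pglym78* (-0.17, adjusted p = 0.036) and *Eno* (-0.15, adjusted p = 0.036), which act after this step in the pathway, fell less. *Pglym78* and *Eno* were each lost in 6 of the 8 fits with 1 sample left out, and the count of falls was 4 to 6 over these fits.

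Of 22 tested genes of lipid synthesis and storage, 8 fell (36.4%) and 1 rose (median -0.11). *Lsd-1*, a perilipin on lipid droplets, fell from 6.74, 6.88, 6.23 and 6.13 to 5.22, 3.06, 3.46 and 3.87 CPM (log2 fold-change -0.76, standard error 0.17, adjusted p = 0.0092). *Lip4*, a lipase, fell from 112, 109, 109.6 and 109 to 68.1, 65.1, 75.8 and 63.5 CPM (log2 fold-change -0.69, standard error 0.06, adjusted p = 4.9e-06). *bmm*, the triglyceride lipase Brummer, fell from 46.7, 54.8, 55 and 51.3 to 36.9, 35.5, 40.7 and 35.2 CPM (log2 fold-change -0.48, standard error 0.07, adjusted p = 0.00044). The groups of these 3 genes did not overlap. *Pcyt1* (-0.27, adjusted p = 0.0036) of phosphatidylcholine synthesis, *Lpin* (-0.25, adjusted p = 0.031) and *Hmgs* (-0.21, adjusted p = 0.011) of the mevalonate pathway fell as well, and *Lpin* was lost in 5 of the 8 fits with 1 sample left out.

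Cytochrome P450 genes and genes of detoxification held falls at shares above that of all genes. Of 49 tested P450 genes, 10 fell (20.4%) and none rose, and of 44 genes of oxidative stress and detoxification, 13 fell (29.5%) and 2 rose. Besides *Cyp12a5*, the falls included *Cyp6a14* (-1.61), *Cyp4p3* (-1.21), *Cyp4d2* (-1.15), *Cyp12a4* (-1.09) and *Cyp4p1* (-0.90). Most of these were at a few CPM: *Cyp6a14* went from 4.83, 3.99, 2.62 and 2.72 to 0.994, 1.73, 0.727 and 1.16 CPM. *Cyp12a4* was lost without control replicate 4 or *jasper* RNAi replicate 5, and the count of P450 falls was 6 without control replicate 4 and 6 with DESeq2. The glutathione S-transferase genes *GstE6*, *GstE7*, *GstE8* and *GstE9*, which stand next to each other on 2R, all fell. *GstE9* had 199, 170.4, 171 and 162 CPM in control cells and 128, 126, 101 and 106 CPM upon *jasper* RNAi (log2 fold-change -0.62, standard error 0.05, adjusted p = 9.6e-06), and *GstE7* 46.1, 39.5, 42.5 and 39.5 against 25.5, 25.1, 25 and 26.1 CPM (log2 fold-change -0.74, standard error 0.07, adjusted p = 1.2e-05). The groups did not overlap in either gene. *GstE8* (-0.70, adjusted p = 1.5e-05), *GstE3* (-0.62, adjusted p = 0.00056), *GstT4* (-0.32, adjusted p = 0.0013) and *Men* (-0.34, adjusted p = 0.00052), malic enzyme, completed the 6 largest falls of the detoxification list. *GstE* genes are close paralogs. By the study's methods only reads with a single alignment were kept, so reads shared between paralogs are missing from their counts.

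Of 14 tested genes of metal homeostasis, 4 fell (28.6% beside 11.4% of all genes) and 1 rose (7.14% beside 8.07%). However, the count of falls was 1 without control replicate 8. *MtnA*, a metallothionein, had 82.8, 71.9, 60.4 and 53.8 CPM in control cells and 73.5, 35.9, 40.1 and 16.2 CPM upon *jasper* RNAi (log2 fold-change -0.76, standard error 0.23, adjusted p = 0.036), and its call was lost in 5 of the 8 fits with 1 sample left out. *Tsf3* (-0.50, adjusted p = 0.0069), a transferrin, was lost without control replicate 8. *ZnT63C* (-0.20, adjusted p = 0.0042), a zinc transporter, fell in all of these fits. *Irp-1B* (-0.18) was lost in 4 of them, and the copper transporter *ATP7* (0.23) rose and was lost without *jasper* RNAi replicate 5.

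In the secretory pathway, 9 of 23 tested genes for chaperones of the endoplasmic reticulum and the unfolded protein response fell (39.1% against 11.4%) and none rose (median -0.12). Subunits of the translocon fell most: *Sec61beta* from 109, 127, 121 and 124 to 92.5, 81.6, 95.3 and 93.5 CPM (log2 fold-change -0.40, standard error 0.06, adjusted p = 0.00045) and *Sec61gamma* from 62.3, 65.9, 73.3 and 80.8 to 49.8, 50.5, 61.6 and 60.5 CPM (log2 fold-change -0.33, standard error 0.05, adjusted p = 0.00063), both without overlap. The chaperones *Hsc70-3*, the BiP of the fly, and *Gp93* were abundant and fell less (-0.27, adjusted p = 0.013 and -0.25, adjusted p = 0.016). *Hsc70-3* went from 1432, 1619, 1369 and 1394 to 1365, 1129, 1215 and 1111 CPM. *Xbp1* (-0.22, adjusted p = 0.0057) and *Atf6* (-0.20, adjusted p = 0.015), the transcription factors of the unfolded protein response, fell with ranges that overlapped. *Gp93* was lost without control replicate 8 or *jasper* RNAi replicate 5, and the list held 7 to 9 falls with 1 sample left out.

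Of 34 tested genes of Rab and coat-mediated vesicle transport, 6 fell (17.6% beside 11.4%) and 1 rose (median -0.08). The small GTPase genes *Rab27* (-0.75, adjusted p = 0.0012), *Rab10* (-0.28, adjusted p = 0.0017) and *Rab6* (-0.25, adjusted p = 0.0016) and the coatomer genes *betaCOP* (-0.27, adjusted p = 0.00091) and *deltaCOP* (-0.17, adjusted p = 0.017) were lower, and *Rab4* (0.19, adjusted p = 0.018) was higher. *deltaCOP* was lost in 3 and *Rab4* in 2 of the 8 fits with 1 sample left out, in each case including the one without control replicate 8 and the one without *jasper* RNAi replicate 5. Proteasome subunits fell at a share near that of all genes, with 5 of 34 lower (14.7% beside 11.4%) and none higher. All 4 tested subunits on the X fell: *Rpt3* (-0.36, adjusted p = 0.00054), *Prosalpha4* (-0.29, adjusted p = 0.00074), *Rpt6* (-0.27, adjusted p = 0.0082) and *Rpt4* (-0.20, adjusted p = 0.022). The only autosomal one, *Rpn9* (-0.26, adjusted p = 0.039), had overlapping groups and was lost in 5 of the 8 fits, and *Rpt4* in 4. Without control replicate 5 or 9 the count of falls was 3.

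Hemocyte genes changed in both directions. Of 13 tested members, 5 fell (38.5% beside 11.4% of all genes) and 1 rose (7.69% beside 8.07%), while the median was 0.05. *Sr-CIV*, a class C scavenger receptor, fell from 30.9, 31.9, 32.8 and 29.1 to 15.5, 14.2, 13.9 and 13.8 CPM (log2 fold-change -1.14, standard error 0.08, adjusted p = 1.3e-06), and *drpr*, the engulfment receptor Draper, from 184, 174, 198 and 172 to 117, 146, 83.7 and 122 CPM (log2 fold-change -0.66, standard error 0.12, adjusted p = 0.0019). In both the groups did not overlap. *Sr-CI* (-0.26, adjusted p = 0.0050), *NimC1* (-0.26, adjusted p = 0.016), a phagocytosis receptor, and *Hml* (-0.40, adjusted p = 0.022), hemolectin, fell less, and *NimC1* and *Hml* had overlapping groups and were each lost in 3 of the 8 fits with 1 sample left out. *He* rose from 184, 201, 215 and 225 to 254, 268, 285 and 332 CPM. The count of falls was 3 without control replicate 8 or *jasper* RNAi replicate 5. Of 4 markers of the other blood cells, crystal cells and lamellocytes, *PPO3*, a prophenoloxidase, was the only one above 1 CPM and fell from 65.5, 59.2, 54.3 and 51.5 to 34.2, 42, 27.9 and 31 CPM (log2 fold-change -0.79, standard error 0.07, adjusted p = 1.6e-05). *apolpp*, the only fat body marker above 1 CPM, encodes the apolipophorin precursor and fell from 40.5, 43, 36.1 and 37.7 to 28, 32.5, 21.2 and 29.8 CPM (log2 fold-change -0.50, standard error 0.10, adjusted p = 0.0036).

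Of 16 tested genes for extracellular matrix and integrins, 5 rose (31.25% beside 8.07% of all genes) and 4 fell (25.0% beside 11.4%). Their median was 0.16. *Pxn*, peroxidasin, was among the most abundant mRNAs, with 3823, 2274, 4755 and 2364 CPM in control cells and 5093, 4343, 5626 and 4756 CPM upon *jasper* RNAi (log2 fold-change 0.59, standard error 0.19, adjusted p = 0.044). Controls 5 and 9 were low and the groups overlapped, and the call was lost with DESeq2 and in 5 of the 8 fits with 1 sample left out. *Ppn* (0.47, adjusted p = 0.016), papilin, was lost in 3 of them. *Plod* (0.24, adjusted p = 0.0033), a collagen-modifying lysyl hydroxylase, and *rhea* (0.24, adjusted p = 0.0042), talin, rose in all of them. The integrin genes *mys* (-0.28, adjusted p = 0.00061) and *mew* (-0.21, adjusted p = 0.013) fell without overlap. The number of rises was 2 without control replicate 5 or 9 or *jasper* RNAi replicate 5. Of 35 tested genes of the actin cytoskeleton, 9 fell (25.7%) and 3 rose (8.57%), with a median of -0.10. *Cdc42* (-0.29, adjusted p = 0.00039), *capt* (-0.22, adjusted p = 0.0027), the cyclase-associated protein, *Arp2* (-0.23, adjusted p = 0.0030), *Mlc-c* (-0.21, adjusted p = 0.0039) and *Rac2* (-0.21, adjusted p = 0.017) were lower, of which *Rac2* was lost without control replicate 4 or 8, and *Actn* (0.30, adjusted p = 0.0069), alpha-actinin, was higher.

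In immune signalling, 6 of 25 tested genes of the Imd and Toll pathways fell (24%) and 1 rose. *Rel*, the NF-κB factor of the Imd pathway, fell from 236, 214, 278 and 269 to 179, 182, 196 and 203 CPM (log2 fold-change -0.39, standard error 0.05, adjusted p = 9.8e-05), and *key*, the IKK subunit Kenny upstream of it, from 123, 123, 159.8 and 150.3 to 103, 103, 114 and 111 CPM (log2 fold-change -0.37, standard error 0.05, adjusted p = 0.00030). Both had groups that did not overlap. *Fadd* (-0.45, adjusted p = 0.0018), the adaptor, *PGRP-SA* (-0.45, adjusted p = 7.2e-05), a recognition protein of the Toll branch, and *Tl* (-0.33, adjusted p = 0.00058), the receptor Toll, also fell. *PGRP-LC*, the receptor of the Imd pathway, rose (0.45, adjusted p = 0.012) and was lost without control replicate 4. Of 6 tested antimicrobial peptide genes 0 passed the threshold with edgeR or DESeq2 and 1 was lower at an unadjusted p under 0.05 (median -0.36). JNK and AP-1 genes were lower where they changed, with 5 of 11 called (45.5%) and none higher (median -0.14). These were *Mmp2* and *Mmp1*, matrix metalloproteinases, *bsk*, the kinase JNK, *egr*, the TNF ligand Eiger, and *kay*, the fly Fos. *Mmp2* fell from 119, 109, 130.0 and 127 to 74.8, 91, 81.3 and 94.4 CPM (log2 fold-change -0.51, standard error 0.07, adjusted p = 0.00022) and *Mmp1* from 206, 213, 201 and 214 to 141, 180.5, 131 and 179 CPM (log2 fold-change -0.40, standard error 0.09, adjusted p = 0.0084), without overlap. *bsk* (-0.23, adjusted p = 0.0030), *egr* (-0.22, adjusted p = 0.019) and *kay* (-0.18, adjusted p = 0.034) fell less, and *kay* was lost in 6 and *egr* in 3 of the 8 fits, so that the count was 3 without control replicate 8 or 9. *Jra* (-0.14), *puc* (-0.11), *msn* (-0.04), *Traf4* (-0.03), *slpr* (0.01) and *hep* (0.04) did not pass the threshold.

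Among cell cycle genes, most calls were rises. *stg*, the Cdc25 phosphatase that triggers mitosis, rose from 131, 178, 154 and 163 to 210.2, 235, 240.2 and 238 CPM (log2 fold-change 0.58, standard error 0.07, adjusted p = 0.00020), and all *jasper* RNAi samples were above all control samples. Of 48 tested mitotic genes, 7 rose (14.6% against 8.07%) and 3 fell (median 0.05), and the 3 that fell, *Klp3A* (-0.26, adjusted p = 0.00086), *feo* (-0.25, adjusted p = 0.012) and *Klp10A* (-0.19, adjusted p = 0.0050), were all on the X. *Mis12* (0.34, adjusted p = 0.014) of the kinetochore and *fzr* (0.27, adjusted p = 0.029), an activator of the anaphase-promoting complex, were among the rises. Of 39 tested genes of DNA replication, 6 rose (15.4% against 8.07%) and 1 fell (median 0.08). Among the rises were *Prim1* (0.43, adjusted p = 0.013) of primase, *chif* (0.29, adjusted p = 0.0044), the regulatory subunit of the Cdc7 kinase, *Fen1* (0.22, adjusted p = 0.0089), *geminin* (0.20, adjusted p = 0.044) and *dpa* (0.17, adjusted p = 0.014), which is Mcm4, and the fall was *Mcm6* (-0.20, adjusted p = 0.0088) on the X. The count of mitotic rises was 2 without control replicate 8 or *jasper* RNAi replicate 4, and that of replication genes 3 without control replicate 8. *Mis12* was lost without control replicate 8, *fzr* in 4, *Prim1* in 2 and *geminin* in 7 of the 8 fits.

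By position, genes on the X and on chromosome 4 fell more often than those on other arms. On the X, 301 of 1481 tested genes fell (20.3%) and 51 rose (3.44%), with a median log2 fold-change of -0.09. On chromosome 4, 19 of 83 fell (22.9%) and 1 rose, with a median of -0.09. On the arms 2L, 2R, 3L and 3R together, 659 of 6980 fell (9.44%) and 637 rose (9.13%), with a median of 0.03, and no single one of these arms had more than 10.7% falls. Over all genes, 301 of the 1000 falls were on the X. X-linked genes made up most of the falls in some gene groups. Examples were 8 of 11 cytosolic ribosomal proteins, 4 of 5 proteasome subunits, 5 of 7 respiratory chain genes and all 3 mitotic genes. The same held for 4 of 6 falls of Rab and coat transport and 3 of 5 of aminoacyl-tRNA synthetases. It also held for 5 of 7 falls of translation initiation and elongation factors and all 3 of mitochondrial ribosomal proteins. In other groups most falls lay elsewhere. The X held 0 of 8 falls of lipid genes, 1 of 6 of glycolysis and 1 of 10 of P450 genes. It held 3 of 9 falls of the actin cytoskeleton, 3 of 9 of endoplasmic reticulum chaperones and 4 of 13 of detoxification. Some of these groups have few members on the X, such as 1 of 22 tested lipid genes. Of the tested members on the X, 4 of 5 of detoxification and 3 of 5 of endoplasmic reticulum chaperones fell. The same counts were 3 of 10 for the actin cytoskeleton, 1 of 2 for glycolysis and 1 of 9 for P450 genes. The largest falls among well-expressed genes of the X and of chromosome 4 were picked after their values were seen. On the X they were, after *RpL22*, *Muc14A* (-1.21), *CG9521* (-1.06), *mmd* (-0.91), *CG15740* and *O-fut2* (-0.84), a protein O-fucosyltransferase. On chromosome 4 they were *CR43361* (-1.31), *CG32017* (-1.13), *CG1674* (-0.71), *yellow-h* (-0.63), *Asator* (-0.52) and *apolpp*. The distributions by arm overlapped widely, as the boxes in the plot by chromosome arm show.

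**Figure D4:**
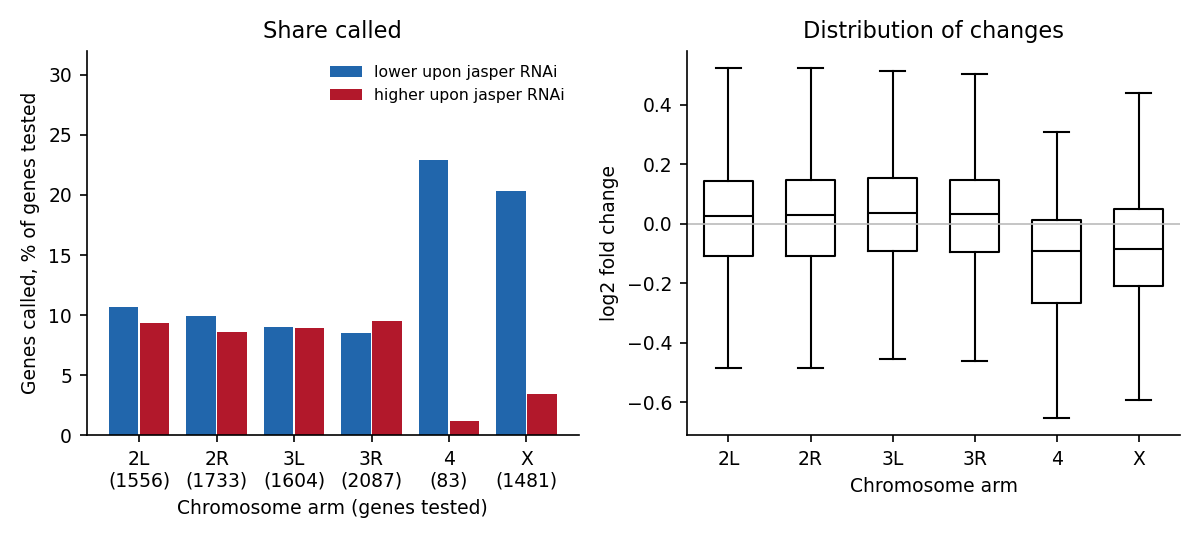
Left, share of tested genes on each chromosome arm called lower (blue) or higher (red) upon *jasper* RNAi, with the number tested in brackets. Right, log2 fold-changes of all tested genes by arm, with the median, the quartiles and whiskers to the last gene within 1.5 interquartile ranges. Chromosome 4 and the X, with 22.9% and 20.3% of genes lower, stand apart from the other arms.

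Neighbouring genes sometimes moved together. Along the order of tested genes, 11 runs of at least 4 neighbours called in the same direction were found, 9 of falls and 2 of rises, with 46 genes in all. Of the 9 runs of falls, 5 were on the X. This search was made after the calls were known and is a description. The longest runs held 5 genes, *CG14780*, *Rab27*, *mei-38*, *rush* and *sta* at 1472522 to 1483413 of the X, and *wgn*, *Rip11*, *Nup35*, *Hou* and *Ing3* at 18624042 to 18653091 of the X. Log2 fold-changes in the former went from -1.26 for *CG14780* to -0.30 for *sta*, and in the latter from -0.61 for *Nup35* to -0.18 for *Hou*. *mei-38* and *rush* overlap on the same strand. A run on 3L with *Tbc1d8-9*, *CG32436*, *ebd2* and *rgn* held the fall of *rgn* (-1.43), and the run on 2R was that of *GstE6* to *GstE9*. Another on the X ended with *Gbeta13F* (-0.29), a G protein beta subunit, and *Gapdh2*.

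By kind of gene, 11.6% of 7822 tested protein-coding genes fell and 8.64% rose. Of 189 tested snoRNAs 17 fell (9.0%, below the 11.4% of all genes), of 18 snRNAs 3 (16.7%) and of 15 tRNAs 3 (20%), with medians of -0.15, -0.32 and -0.49, and no call was a rise. The summed level of snoRNAs was 6776 to 8971 CPM in control cells and 5753 to 7827 CPM upon *jasper* RNAi, so the ranges overlapped. Of 46 tested pseudogenes, 9 fell (19.6%) and none rose. Of 466 noncoding RNA genes, 39 fell (8.37%) and 13 rose (2.79%).

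The same RNAi in female Kc cells, in 4 control and 4 *jasper* RNAi samples of their own, gave fewer calls. Of 9448 genes tested, 96 were lower and 63 higher (1.02% and 0.667%), and the variation beyond counting error was larger, with a coefficient of 13.2% in Kc cells and 6.33% in S2 cells. Of the 1000 genes lower in S2 cells, 955 were tested in Kc cells, where 46 were lower and 6 higher, with a median log2 fold-change of -0.12. The 46 are 4.6% of the S2 falls and 47.9% of the Kc falls, beside 1.02% and 11.4% of all genes tested in Kc and S2 cells. With 1 Kc sample left out, the Kc counts were 13 to 118 lower and 4 to 127 higher genes, with the fewest without Kc control replicate 3. Of the 705 genes higher in S2 cells, 690 were tested in Kc cells, where 5 were higher and 2 lower, with a median of 0.11. The 5 are 0.709% of the S2 rises and 7.94% of the Kc rises, near the 0.667% and 8.07% of all genes tested. The difference between the lines was tested as an interaction term on 8248 genes. The response was lower in S2 cells for 142 genes (1.72%) and higher for 62 (0.752%). Of the S2 falls, 123 were among the former and 2 among the latter, and of the S2 rises, 28 were among the latter and 1 among the former. The interaction used the same S2 samples as the S2 calls, so the direction of these splits is largely built in. Without S2 control replicate 8 the counts over all genes were 96 and 26.

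For single genes, the falls of *Marf1* and *SoYb* differed between the lines. *Marf1* had a log2 fold-change of -1.12 in S2 cells and -0.06 in Kc cells (difference -1.06, adjusted p = 8.9e-07), and *SoYb* -1.15 and -0.13 (difference -1.02, adjusted p = 0.00016). *blanks* was at -1.61 and -0.56 (difference -1.05, adjusted p = 0.010), and *CG10859*, which fell in both lines, at -1.67 and -0.80 (difference -0.88, adjusted p = 0.0078). Of the PIWI-clade genes, *aub* differed (-0.48, adjusted p = 0.019), while for *piwi* (-0.47, adjusted p = 0.30) and *AGO3* (-0.63, adjusted p = 0.086) no difference was called. *egr* fell in S2 cells and rose in Kc cells (-0.22 and 0.74, difference -0.97, adjusted p = 0.0027). Among the rises, *orb* (difference 1.33, adjusted p = 0.0095), *Asph* (0.92, adjusted p = 0.0093), *Acer* (0.99, adjusted p = 0.032) and *stg* (0.58, adjusted p = 0.027) had higher log2 fold-changes in S2 cells. *Mct1* was at 1.25 in S2 and 1.12 in Kc cells (difference 0.15, adjusted p = 0.85). For *RpL22* the Kc value was -0.17 with a standard error of 0.86, and the difference of -2.37 did not pass the threshold (adjusted p = 0.27). On the X, 10 of 1583 tested genes fell and 15 rose in Kc cells. Over all 9448 genes tested there, 96 fell (1.02%) and 63 rose (0.667%).

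**Figure D5:**
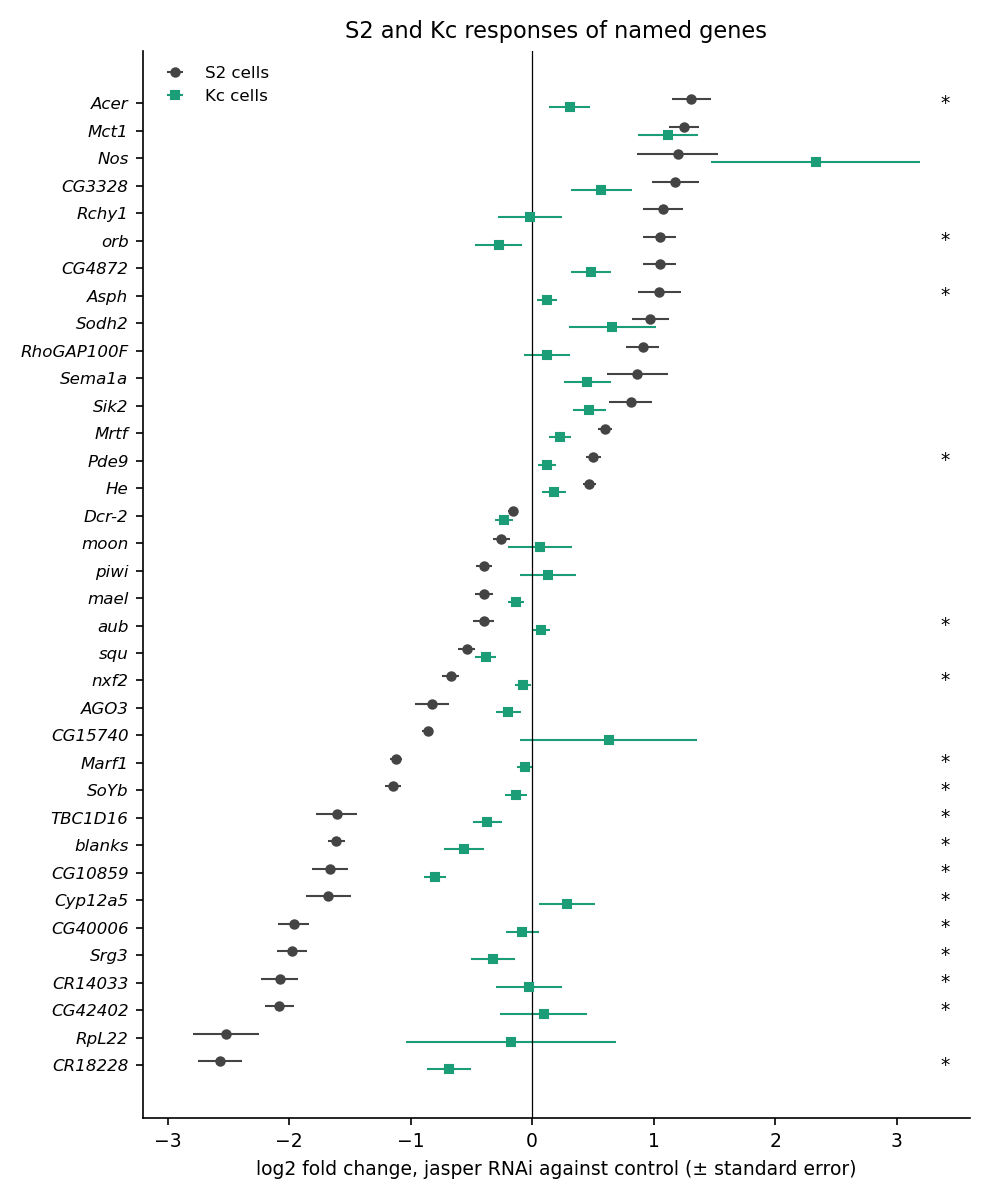
Log2 fold-change upon *jasper* RNAi in S2 cells (grey circles) and Kc cells (green squares) with standard errors for 36 called genes with the most marked changes or a role in small RNA silencing, where asterisks mark the 17 with a difference between the lines at an adjusted p below 0.05. *CG42402* is at -2.08 in S2 cells and 0.10 in Kc cells, while *CG10859* is below 0 in both lines at -1.67 and -0.80.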

How the data were processed

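RNA-seq counts of 8 S2 samples (4 control RNAi and 4 *jasper* RNAi, batches 1 and 2) were analysed, with 8 Kc samples for comparison. Per the labels and the study's methods, the authors aligned reads to release 6 of the fly genome (BDGP6) with STAR 2.6.0 and deposited raw counts per gene without normalization, on the strand of the gene, on the opposite strand and without regard to strand. RSEM 1.3.0, which the submitters' processing notes also name, was not used here. Tables list 17489 genes, and the Ensembl annotation of release 115 held 17215 of them. The other 274 had no chromosome assigned and were tested only where they passed the filter on reads. Reads on no feature (6.85 to 10.1% of reads in the 8 samples) and ambiguous reads (3.00 to 6.31%) stayed out of library sizes. Groups, batches and replicate numbers were taken from the labels.

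Own-strand counts were tested with edgeR 4.0.16 in R 4.3.3 (TMM, quasi-likelihood F-test, batch as covariate) for genes with more than 0 reads in all 8 samples, after removal of the targeted gene *Jasper*, whose own-strand reads are not described here. P-values were adjusted after Benjamini and Hochberg over all genes, genes with an adjusted p below 0.05 were called, and standard errors were obtained from log2 fold-change and F. The Kc samples were fitted alike, and the difference between lines as an interaction over 16 samples on genes with reads in all of them. The fit was tested on simulated data. Samples of a group differed beyond counting noise in all 12 pairs (chi-square per degree of freedom 3.69 to 52.3), so none was counted as a duplicate.

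The genes named were the 12 largest rises and falls among called genes of at least 5 mean CPM that moved alike in all 4 same-numbered pairs, the 5 smallest p in each direction, up to 6 called members of at least 1 mean CPM of each described list, all members of lists of up to 12 genes, and *JIL-1*. A gene among the largest rises is not described in the text. Genes outside this rule are named as chosen afterwards or as part of a run. Genes were grouped in 53 lists by function or cell type, and a further list was added after the values were seen. Members are named from 29 of these lists. The comparison, members and lists were all chosen with earlier results of these data known. Alternatives were DESeq2 1.42.0, scaling by RLE or by TMM on autosomes alone, 3 filters of low counts, both strands counted together, a model without batch or with the replicate number, all 14 S2 samples in the model, *Jasper* kept, and single samples left out. Files of *jil-1* RNAi in Kc cells were not used here.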

Additional observations from a re-analysis of the deposited data

Results flagged for a closer look

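Of 180 named genes tested in both lines, 28 responded differently to *jasper* RNAi in S2 and Kc cells by the interaction term of edgeR, with adjusted p between 8.9e-07 and 0.032. Over all genes 1.72% were called lower and 0.752% higher in S2, but the named genes were chosen mostly for their S2 changes, so their share is no result. The S2 log2 fold-change minus that in Kc cells was negative for *CR18228* (-1.88), *CG42402* (-2.15), *CR14033* (-2.05), *Srg3* (-1.62), *CG40006* (-1.89), *Cyp12a5* (-1.95), *CG10859* (-0.88), *blanks* (-1.05), *TBC1D16* (-1.24), *Cyp6a14* (-1.81), *SoYb* (-1.02), *Marf1* (-1.06), *PPO3* (-0.83), *GstE7* (-0.71), *nxf2* (-0.60), *drpr* (-0.87), *GstE3* (-0.75), *aub* (-0.48), *Mmp1* (-0.64), *RpS14a* (-0.37), *egr* (-0.97) and *ZnT63C* (-0.31). It was positive for *rhea* (0.46), *Pde9* (0.39), *stg* (0.58), *Asph* (0.92), *orb* (1.33) and *Acer* (0.99).

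In 18 of 366 groups of 4 samples (4.92%), the lowest or highest sample lay far from the other 3 relative to the range of the group, where chance gives about 1 in 20. In control RNAi replicate 4 they were *RpLP2* at 2939.6 CPM, *Klp3A* at 268 CPM, *Hmgs* at 204 CPM, *kay* at 695 CPM, *His4r* at 436 CPM and *cal1* at 50.4 CPM. In control RNAi replicate 5 it was *CG4872* at 10.9 CPM. In control RNAi replicate 8 they were *Cyp12a4* at 1.34 CPM and *lz* at 0.305 CPM. In control RNAi replicate 9 they were *CG4267* at 10.2 CPM and *up* at 2.95 CPM. In *jasper* RNAi replicate 4 they were *Rac2* at 115.5 CPM, *Mnn1* at 72.6 CPM and *fzr* at 34.3 CPM. In *jasper* RNAi replicate 5 they were *Mlp84B* at 6.36 CPM and *Mis12* at 25.4 CPM. In *jasper* RNAi replicate 8 they were *Lpin* at 146 CPM and *ear* at 116 CPM. Control replicate 4 held 6 of the 18.

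Reads on the strand opposite to the targeted gene, which no comparison used, amounted to 1108, 126, 1186 and 247 CPM in *jasper* RNAi replicates 4, 5, 8 and 9, against 4.26, 1.78, 6.10 and 9.99 CPM in the control samples. Their part in the results was not tested.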

How the results depend on the processing

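The number of genes called was the least stable result, and directions were the most stable. DESeq2 called 372 genes higher in S2 cells against 705 with edgeR. With TMM on autosomal genes alone, 1139 genes were lower and 550 higher. Without batch in the model 471 genes were lower and 196 higher. With the replicate number as a block in place of batch, 1027 were lower and 738 higher. Same-numbered samples deviated together only as far as they shared a batch, with r of 0.0274 and 0.0358 after removal of batch means. With 1 S2 sample left out, 670 to 977 genes were lower and 288 to 657 higher, and both were lowest without control replicate 8. In Kc cells DESeq2 called 351 lower and 185 higher genes, and the replicate block 193 and 124. With 1 Kc sample left out these were 13 to 118 and 4 to 127. The difference between lines was called lower in S2 for 255 and higher for 110 genes with DESeq2, and for 96 to 203 and 26 to 101 genes with 1 sample left out. Under every alternative other than counts without regard to strand, where 1 gene called higher became called lower, no S2 call was made in the opposite direction.

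Of 165 named genes called, 94 stayed called without batch, 147 with DESeq2, 154 to 164 under the other alternatives and 128 to 154 with 1 sample left out, and 87 under all of these that tested them. The only called gene among them to turn its direction was *Sodh2* (-0.227 without regard to strand). The others that turned were not called: *JIL-1* (-0.192 with all 14 S2 samples), *slpr* (-0.00784 with autosomal TMM) and *lz* (-0.0272 without regard to strand, -0.245 with all 14 S2 samples). With 1 sample left out, values spanned 0 for *slpr* (-0.0164 to 0.0236), *hep* (-0.0197 to 0.0886), *roX1* (-0.0617 to 0.564), *Mlc2* (-0.483 to 0.0725), *Clamp* (-0.0354 to 0.00368), *Traf4* (-0.0697 to 0.0278) and *lz* (-0.15 to 0.327), none of which was called. In lists described without a rise, members higher at an unadjusted p under 0.05 numbered 6 for cytosolic ribosomal proteins (4 called by DESeq2), 5 each for heterochromatin proteins and for DNA damage response and apoptosis, 3 each for small RNA silencing and the further piRNA genes, 2 each for P450 genes and heat shock proteins (the latter with up to 4 called under another alternative), 1 each for H3K36 methylation, insulin and TOR signalling, aminoacyl-tRNA synthetases, glycolysis and the proteasome, and 0 for endoplasmic reticulum chaperones and for JNK and AP-1 genes, none of them called by DESeq2 outside the ribosomal proteins. In lists without a called fall the lower members numbered 2 for pausing and elongation factors, 1 for autophagy and 0 for Polycomb genes, replacement histones and ribosome biogenesis, again with none called by DESeq2. The causes were not tested. Genes at a few CPM, such as *lz*, are limited by depth.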

Other observations

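Several further gene lists are given with their shares in S2 cells, beside 11.4% lower and 8.07% higher over all genes tested. Of 33 genes of ribosome biogenesis none fell and 2 rose (6.06%), and of 22 autophagy genes none fell and 3 rose (13.6%). Of 18 genes of insulin and TOR signalling 1 fell (5.56%) and none rose. Of 43 translation initiation and elongation factors 7 fell (16.3%), 5 of them on the X, and 2 rose (4.65%). Of 32 spliceosome genes 4 fell (12.5%) and 5 rose (15.6%). With 1 sample left out the falls numbered 1 (without control replicate 9 or *jasper* RNAi replicate 5) to 4. The rises numbered 1 (without control replicate 8) to 3 in these fits, and DESeq2 called 2 rises. Of 33 genes for the nuclear lamina and pore 2 fell (6.06%) and 4 rose (12.1%). The rises numbered 2 without control replicate 4 or 8 or *jasper* RNAi replicate 4. Of 24 genes of the DNA damage response and apoptosis 1 fell (4.17%) and none rose. Of 19 heat shock proteins and chaperones 2 fell (10.5%) and none rose.

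The 4 *jasper* RNAi samples were not alike in a subset of genes. Of 6772 genes of at least 5 mean CPM, 38 were higher by more than 0.5 on the log2 scale in replicates 5 and 9 than in both 4 and 8, and 20 were lower. Among the control samples of the same numbers 1 gene was higher and 18 lower. The 38 included *Nos*, *Sema1a* and *CG4267*. Opposite-strand reads on the targeted gene were lower in replicates 5 and 9 than in replicates 4 and 8 of *jasper* RNAi, and whether the patterns are related was not tested.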
